A study of Mus musculus with 2 samples.

Results

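The smooth muscle contractile genes considered here were Acta2, Actg2, Myh11, Myocd, Tagln, Cnn1, Lmod1 and Mylk, 8 of the 32285 genes in both gene tables of a single-nucleus RNA sequencing study of the developing mouse kidney. They were chosen by symbol, and their unique molecular identifiers (UMIs, each standing for 1 captured RNA molecule) were summed over nuclei types and stromal zones that had been defined by other genes. The study held 2 libraries of whole kidneys, 1 per age. The E18.5 library came from embryos with floxed Myc and Mycn alleles and no Cre (Mycf/f;Mycnf/f) on a mixed background, and the P3 library from wild type pups that the labels place on C57BL/6J, although the methods describe a mixed background for the 2 ages alike. Male and female kidneys were pooled in each, and no label gives the number of animals. No treatment separated the groups. With 1 library per age, age, genotype, background and library cannot be told apart, and no test between ages or between classes was possible. Intervals in parentheses are exact 95% intervals and cover counting error only.

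Smooth muscle shortens when actin filaments slide past myosin filaments. Calcium bound to calmodulin activates myosin light chain kinase, the enzyme encoded by Mylk, which phosphorylates the light chains of the myosin whose heavy chain is encoded by Myh11. The transcriptional coactivator myocardin, the product of Myocd, acts with serum response factor on CArG boxes in the promoters of such genes. In the kidney these genes are known from the muscle of arteries and arterioles, from renin cells, which are modified arteriolar muscle, and from the peristaltic muscle of the renal pelvis and ureter. A nuclear library reads unprocessed as well as mature RNA, so a level here is nuclear RNA and not protein.

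After quality limits 21270 of 21600 barcodes were kept at E18.5 and 11765 of 12216 at P3, with 77321253 and 70055219 UMIs and medians of 3132.5 and 4534 UMIs per nucleus. The libraries shared 67 barcodes. A doublet caller marked 16.4% of nuclei at E18.5 and 16.8% at P3, and 30.8% and 27.6% of nuclei lay in clusters that could not be named. Stroma, the connective tissue and vessel wall nuclei, comprised 4974 nuclei at E18.5 and 3139 at P3. Mural-like nuclei were named within it from mural, renin lineage and mesangial marker lists, with markers such as Notch3, Abcc9 and Pdgfrb. The class can thus hold pericytes, arteriolar muscle, renin cells and mesangial cells of the glomerulus. The 8 genes were kept out of the genes used for clustering. There were 196 mural-like nuclei at E18.5, in a cluster of 175 led by Dkk2 and a Ren1-high cluster of 21. At P3 there were 111, in clusters of 20 led by Dkk2, 59 led by Trpc4 and 32 with high Ren1. Different clusters therefore made up most of the class at each age. Levels are given as CPM, the UMIs of a gene in every 1000000 UMIs of the class. A gene was called higher or lower when the ratio of 2 levels, each raised by 10 CPM, reached 2 times in either direction, among genes with at least 10 UMIs over both classes.

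The genes differ widely in length, which matters for nuclear RNA because introns are included where the counting takes them. In the GRCm38 annotation Tagln is the shortest at 6.4 kb (chr9:45929619-45936058, minus strand), followed by Cnn1 at 10.4 kb (chr9:22099216-22109630, plus strand) and Acta2 at 14.5 kb (chr19:34241090-34255590, minus strand). Actg2 spans 23.4 kb (chr6:83512905-83536265, minus strand) and Lmod1 43.3 kb (chr1:135324807-135368065, plus strand). Myocd spans 93.4 kb (chr11:65176561-65269989, minus strand), Myh11 96.8 kb (chr16:14194535-14291372, minus strand) and Mylk 257.2 kb (chr16:34745210-35002420, plus strand). Levels of different genes are therefore not ranked against each other below, and each gene is compared with itself between classes. Mylk overlaps 3 antisense genes (1700119H24Rik, E130310I04Rik and Gm21691) and Tagln overlaps Pcsk7 and Gm48529 on the opposite strand. Whether counting used strand is not given in the sources used here, and mixing of reads between these opposite-strand pairs was not tested.

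Myocardin and serum response factor act through the CArG box, so the promoters were searched for this 10-base motif, which reads alike on both strands, in the 250 bases before each start (RefSeq sequences, build GRCm38.p6). The table used held 4 of the 8 genes, Acta2, Cnn1, Lmod1 and Mylk. No exact box was found in these 4 windows, where 1.47% of 32851 promoter windows hold one. With at most 1 mismatch, which 18.6% of windows hold, Acta2 and Lmod1 had 2 each and Cnn1 and Mylk none. The pieces of 30 bases around these boxes of 1 mismatch are shown because the CArG box is the motif through which Myocd, 1 of the 8, acts. Whether it acts through these pieces was not tested. Each piece is written 5′ to 3′ on the strand of its gene with the box in capitals, and a match of letters is not a site shown to be bound. The start of the RefSeq table lies at 34255373 for Acta2 and 135324813 for Lmod1, which is 217 and 6 bases inside the gene spans given above, so the Acta2 boxes lie within its annotated span.
Acta2, box 84 bases before the start, chr19:34255438-34255467: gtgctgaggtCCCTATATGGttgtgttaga
Acta2, box 34 bases before the start, chr19:34255388-34255417: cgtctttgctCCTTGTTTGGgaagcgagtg
Lmod1, box 189 bases before the start, chr1:135324614-135324643: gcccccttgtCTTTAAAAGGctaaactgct
Lmod1, box 164 bases before the start, chr1:135324639-135324668: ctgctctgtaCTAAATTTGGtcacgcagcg

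Taken over all nuclei, none of the 8 genes was confined to stroma. The muscle actin gene Acta2 reached 81.1 CPM (79.1 to 83.1) at E18.5 and 68.9 CPM at P3, with a UMI in 23.1% and 24.9% of nuclei. Actg2, the actin of visceral muscle, stood at 3.12 and 4.47 CPM, and the myosin gene Myh11 at 23.5 and 39.0 CPM. Mylk was at 205 and 388 CPM and was detected in 36.8% and 56.2% of nuclei. Of the thin filament genes, Tagln (transgelin, an actin-binding protein) was at 34.8 and 37.8 CPM, Cnn1 (calponin) at 2.85 and 2.63 CPM, and Lmod1 (leiomodin, an actin filament nucleator) at 7.59 and 11.7 CPM. Myocd was at 15.1 and 14.6 CPM.

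Stroma held 20.6% of all UMIs at E18.5 and 21.2% at P3, and more than that share of each of the 8 genes. The share was lowest for Acta2 and Tagln at E18.5, with 32.7% and 33.9% of their UMIs, and highest for Myocd at 60.8%. At P3 it ranged from 45.3% for Mylk to 57.3% for Myh11. The rest lay in other nuclei, where the level of each gene was lower than in stroma when all of these nuclei were summed. Single clusters outside stroma could stand above it. At P3 a distal tubule-like cluster of 159 nuclei held Myocd at 53.1 CPM, against 34.8 CPM over all stroma. A podocyte-like cluster of 39 nuclei at P3 held Tagln at 154 CPM, against 87.9 CPM over all stroma. Its median was 8145 UMIs, against 4903 in all podocyte-like nuclei at P3. Of these 293 nuclei 218 were left without called doublets, and the part of doublets in the Tagln level was not tested. Over the named types outside stroma Acta2 ranged from 56.2 to 84.1 CPM at E18.5 and from 32.3 to 58.9 CPM at P3, and Mylk from 44.5 to 176 CPM and from 73.4 to 370 CPM, with podocyte-like nuclei highest for Mylk at each age. Proximal tubule-like nuclei are an epithelial type and not muscle, and 26.7% and 36.7% of them were called doublets. In them Acta2 was at 56.2 and 34.3 CPM, Tagln at 20.6 and 17.9 CPM, Myh11 at 12.04 and 15.1 CPM and Mylk at 127 and 190 CPM. An unnamed cluster of 2716 shallow nuclei at E18.5, with a median of 1249 UMIs, held 201 CPM of Acta2 and 11.3% of its UMIs. It stood above every named stromal zone for this gene and, among stromal clusters, below the Ren1-high and Rbm24-led ones, and was not read as expression in a cell type.

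**Figure D1:**
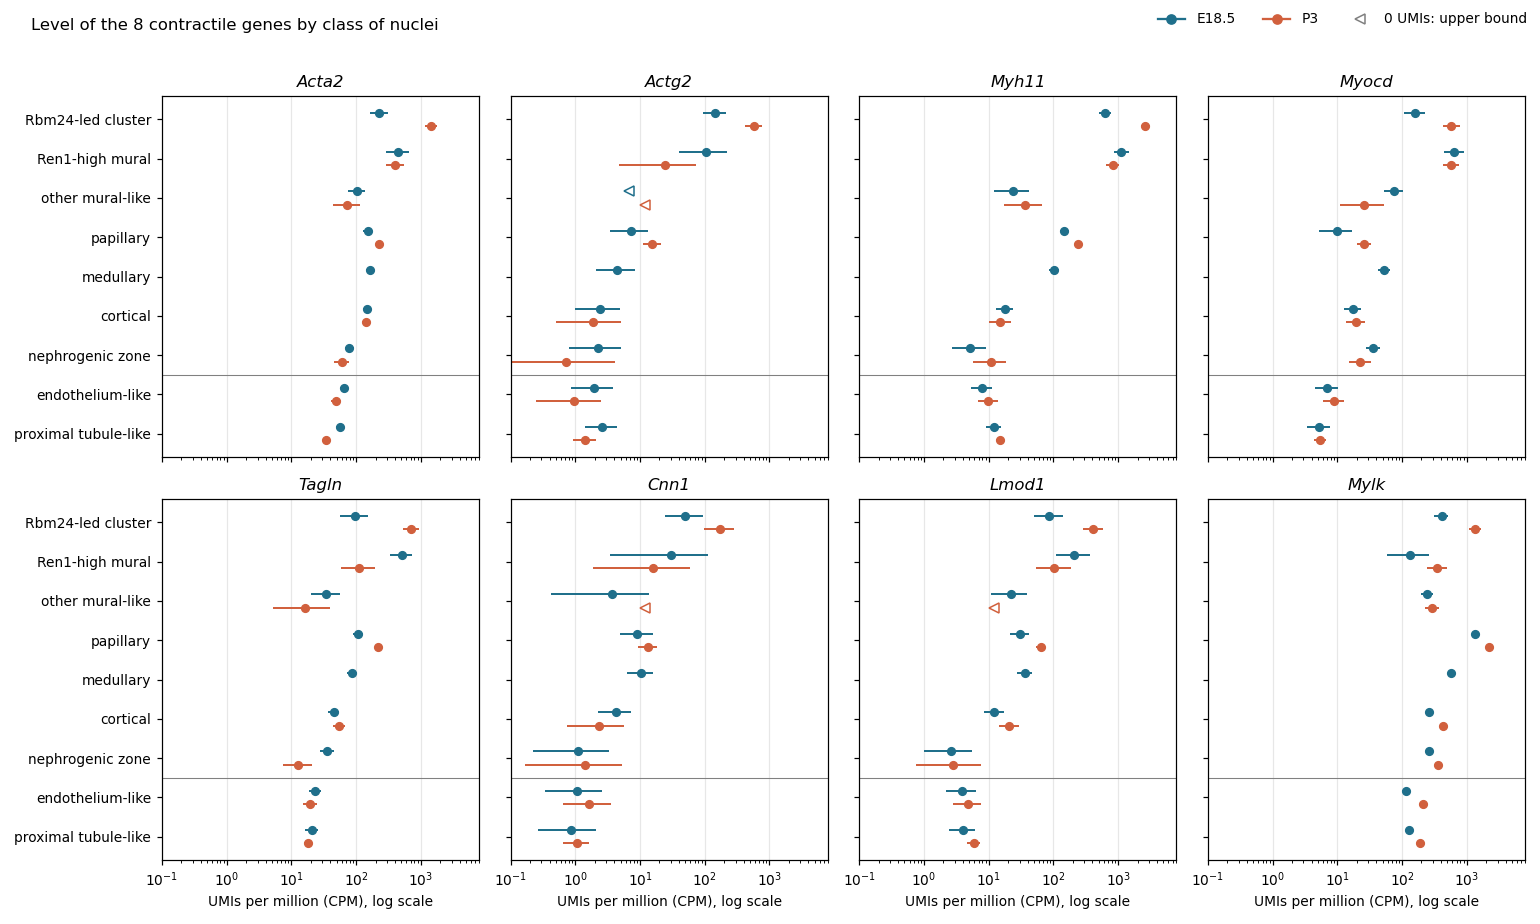
Level of each of the 8 genes in CPM on a log scale (horizontal), 1 panel per gene, in stromal clusters and zones and 2 other nuclei types (vertical) at E18.5 and P3. Bars are exact 95% Poisson intervals and open triangles the upper bound where 0 UMIs were counted. Myh11 reached 1130 CPM in the Ren1-high mural cluster at E18.5 and 2630 CPM in the Rbm24-led cluster at P3, against 12.04 and 15.1 CPM in proximal tubule-like nuclei.

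Among clusters of 20 or more nuclei, each gene but Mylk was highest in 1 of 2 small populations at each age. These were a Ren1-high mural cluster and a cluster led by Rbm24. At P3 the Rbm24-led cluster was highest for each of these genes, although for Myocd the 2 clusters were almost level. Myocd was at 579 CPM from 57 UMIs in the Rbm24-led and at 577 CPM from 72 UMIs in the Ren1-high cluster. Together the 2 clusters made up 0.592% of nuclei at E18.5 and 0.476% at P3. They held 16.2% and 19.2% of Actg2 UMIs, 11.8% and 13.3% of Myh11 UMIs, and 6.67% and 12.6% of Myocd UMIs. The shares were 5.91% and 10.3% for Cnn1, 5.62% and 6.57% for Lmod1, 2.05% and 3.17% for Tagln, and 1.28% and 4.00% for Acta2. For Mylk the share was 0.624% and 0.656%, close to their share of nuclei. Its level per UMI was 408 and 1361 CPM in the Rbm24-led clusters and 134 and 352 CPM in the Ren1-high clusters. Over all nuclei it was 205 and 388 CPM. These clusters were singled out after the levels of the 8 genes in them were known, and the counts below describe them.

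The Rbm24-led cluster at P3 contained 24 nuclei with a median of 3715.5 UMIs, of which 8.33% were called doublets. It was named ureteric and pelvic mesenchyme-like by its markers, among them Tbx18 at 213 CPM and Tshz3 at 751 CPM, while Ren1 was at 0 and Notch3 and Pdgfrb were at 40.6 and 30.5 CPM. Acta2 there was at 1452 CPM against 143 CPM in other stromal nuclei, a ratio of 10.2 (8.52 to 12.1). Actg2 was at 579 against 6.59 CPM, 87.8 times (62.2 to 123). Myh11 was at 2630 against 88.7 CPM, 29.6 times (25.8 to 33.9). The actins and the myosin were thus high in the same cluster, as sums over its 24 nuclei. Such sums do not show whether single nuclei carried these genes together. Cnn1 followed at 36.3 times (20.03 to 62.4) from 17 UMIs, Myocd at 18.6 times, Lmod1 at 15.4 times and Tagln at 8.49 times. Mylk, at 1361 against 826 CPM, was 1.65 times (1.38 to 1.95) higher and did not reach the limit. In all 7 of the 8 genes were called higher, where 5.65% of 17000 genes were.

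At E18.5 the Rbm24-led cluster held 105 nuclei and stayed unnamed. It was shallow, with a median of 1947 UMIs, and 35.2% of its nuclei were called doublets. Ttn, the striated muscle titin, was among its leading genes with 36 UMIs, and 99 of the 105 nuclei carried no UMI of the striated muscle list. Actg2 was at 145 CPM against 3.75 CPM in other stroma, 38.7 times (24.3 to 60.5), and Myh11 at 630 against 49.0 CPM, 12.8 times (10.6 to 15.4). Cnn1 was 8.92 times, Lmod1 5.11 times and Myocd 3.69 times the level in other stroma. Acta2, with 227 CPM and a ratio of 1.78 (1.32 to 2.36), Tagln with 1.68 and Mylk with 0.988 did not pass the limit. So 5 of the 8 genes were called higher, where 2.33% of 17495 genes were. Without the called doublets, 68 nuclei were left with Myh11 at 858 CPM, Actg2 at 196 CPM and Acta2 at 290 CPM. Without the nuclei that carried a striated muscle UMI, Myh11 was at 399 CPM, Actg2 at 98.6 CPM and Acta2 at 173 CPM.

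The Ren1-high mural cluster had a different profile. At E18.5 its 21 nuclei held Ren1 at 1041 CPM, Notch3 at 714 CPM, Abcc9 at 327 CPM and Pdgfrb at 164 CPM. Myh11 stood at 1130 CPM against 52.5 CPM in the other stromal nuclei, 21.5 times (16.8 to 27.2), and Myocd at 639 against 42.0 CPM, 15.2 times (10.9 to 20.7). Tagln was at 505 against 55.2 CPM, 9.15 times (6.30 to 12.9), and Lmod1 at 208 against 16.99 CPM, 12.3 times. Acta2 was raised less, at 446 against 127 CPM, 3.51 times (2.36 to 5.03). Actg2 rested on 7 UMIs, at 104 CPM and 19.7 times (7.68 to 42.4), and Cnn1 on 2 UMIs, at 29.7 CPM and 4.87 times (0.582 to 18.1). Mylk went the other way, with 9 UMIs, 134 CPM and a ratio of 0.323 (0.148 to 0.614). Thus 7 of 8 genes were called higher, where 7.77% of 17495 genes were.

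At P3 the Ren1-high cluster contained 32 nuclei, with Ren1 at 1362 CPM, Notch3 at 1153 CPM and the renin lineage gene Akr1b7 at 152 CPM. Myocd was at 577 against 30.2 CPM, 19.1 times (14.7 to 24.6), Myh11 at 825 against 99.5 CPM, 8.29 times (6.72 to 10.1), and Acta2 at 401 against 149 CPM, 2.68 times (1.98 to 3.55). Lmod1 was 3.58 times (1.89 to 6.19) the level in other stroma. These were the 4 genes called higher, where 5.46% of 17000 genes were. Tagln, at 112.1 CPM and 1.28 times (0.697 to 2.15), did not stand above other stroma, and Actg2 and Cnn1 had 3 and 2 UMIs, with ratios of 2.34 (0.477 to 6.97) and 2.77 (0.330 to 10.3). Mylk was again lower, at 352 against 834 CPM and 0.423 times (0.307 to 0.568).

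In the remaining mural-like nuclei most of the 8 genes were below other stroma. In the Dkk2-led cluster of 175 nuclei at E18.5, with Abcc9 at 1109 CPM, Pdgfrb at 578 CPM and Notch3 at 511 CPM, Acta2 was at 104 CPM and Tagln at 34.7 CPM. Myh11 there was at 23.7 CPM, 0.407 times (0.216 to 0.6997) the other stroma, and no Actg2 UMI was counted. Myocd stood above the other stroma, at 74.8 CPM and 1.72 times (1.22 to 2.36), short of the limit, and Lmod1 was at 21.9 against 17.6 CPM, 1.24 times (0.633 to 2.20). The Trpc4-led cluster of 59 nuclei at P3, with Abcc9 at 905 CPM, Pdgfrb at 839 CPM and Notch3 at 479 CPM, held Acta2 at 66.6 CPM, 0.436 times (0.243 to 0.720), and Myh11 at 44.4 CPM, 0.417 times (0.199 to 0.768). Myocd and Tagln had 2 and 5 UMIs, with ratios of 0.253 (0.0305 to 0.917) and 0.2497 (0.0809 to 0.584), and Actg2, Cnn1 and Lmod1 had none. There 7 of 8 genes were called lower, all but Cnn1, where 4.29% of 17000 genes were. From 0 UMIs, the upper bound of the ratio was 1.57 for Actg2 and 0.545 for Lmod1. The Dkk2-led cluster of 20 nuclei at P3 had 33 UMIs of the 8 genes in all, 19 of them Mylk. There 5 of the 8 genes were called lower, where 14.2% of 17000 genes were. Among them Actg2, Tagln and Lmod1 had 0 UMIs, with upper bounds of the ratio of 4.51, 0.527 and 1.57. Myocd, from 6 UMIs, was at 75.7 against 34.5 CPM, 2.19 times (0.8004 to 4.80).

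**Figure D2:**
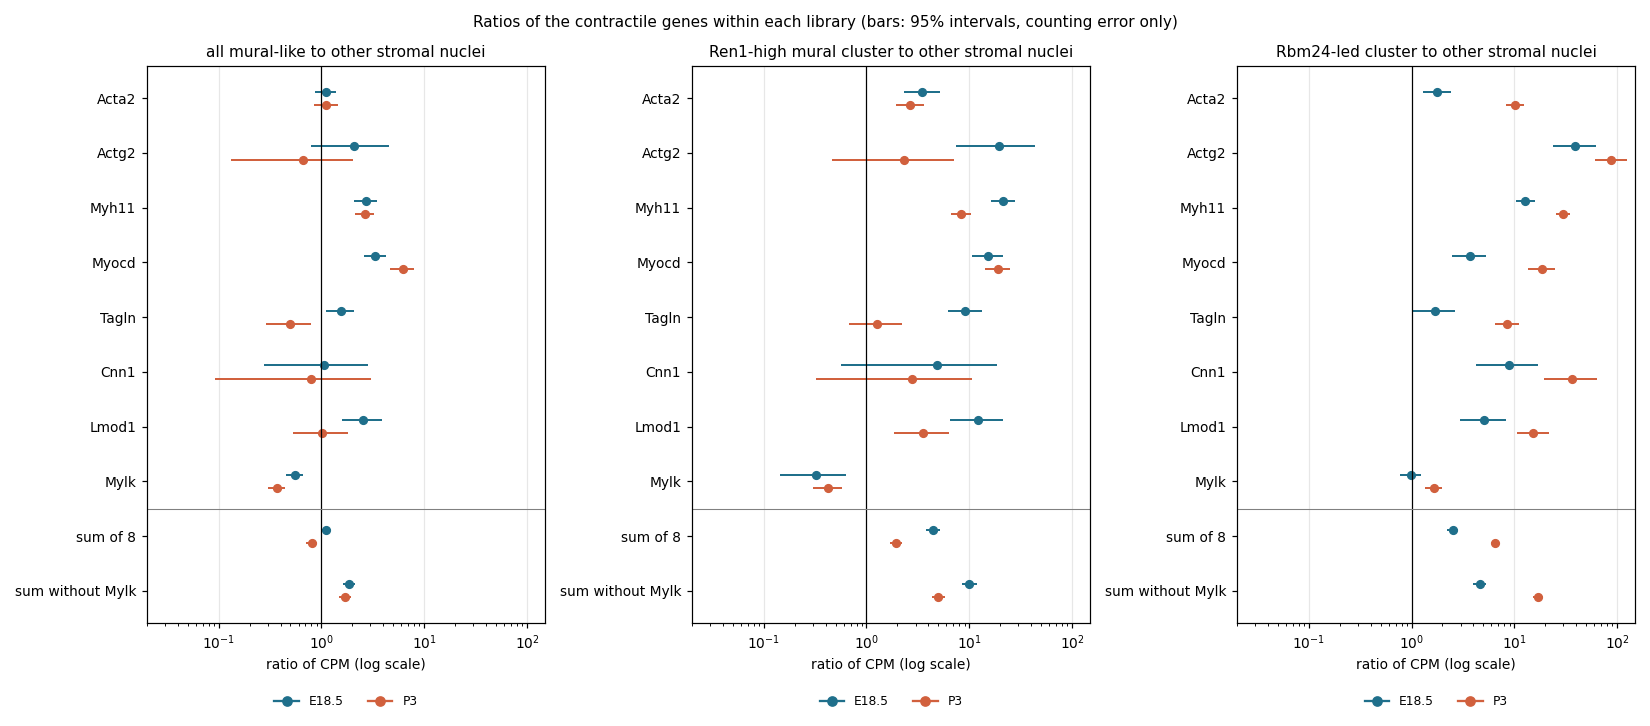
Ratio of CPM of each gene (vertical) to the other stromal nuclei of the same library on a log scale (horizontal), with panels for all mural-like nuclei, the Ren1-high mural cluster and the Rbm24-led cluster. Points are E18.5 and P3, bars exact 95% intervals for counting error. Actg2 reached 87.8 times in the Rbm24-led cluster at P3, whereas Mylk lay below 1 in the Ren1-high clusters, at 0.323 and 0.423.

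Summed over the whole mural-like class, these opposite clusters gave a modest difference from other stroma. The 8 genes together came to 801 CPM against 727 CPM at E18.5, 1.10 times (1.01 to 1.21), and to 1015 against 1263 CPM at P3, 0.804 times (0.729 to 0.884). Mylk made up most of the sum outside the class, at 420 CPM at E18.5 and 846 CPM at P3. Without it the sums were 569 against 307 CPM, 1.85 times (1.66 to 2.07), and 706 against 417 CPM, 1.69 times (1.50 to 1.90). With the Ren1-high nuclei counted as other stroma, the ratio of the 8 genes fell to 0.688 at E18.5 and 0.348 at P3. It was also 0.929 and 1.04 when mural-like nuclei were taken as those with at least 2 of Notch3, Abcc9 and Pdgfrb detected, and 0.981 and 1.27 with Leiden clusters, so the direction of this summed ratio depended on how the class was drawn.

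Among single genes of the mural-like class, Myh11 was at 145 against 53.6 CPM at E18.5, 2.70 times (2.14 to 3.36), and at 265 against 100.8 CPM at P3, 2.63 times (2.16 to 3.19). Myocd was at 137 against 40.9 CPM, 3.34 times (2.63 to 4.20), and at 186 against 30.2 CPM, 6.16 times (4.79 to 7.84). These 2 were called higher at each age, where 1.91% of 17495 genes were at E18.5 and 2.38% of 17000 at P3. With the Ren1-high nuclei counted as other stroma, Myh11 fell to 0.407 and 0.337 times and Myocd to 1.72 and 0.752 times. With the 3-gene definition of at least 2 of Notch3, Abcc9 and Pdgfrb, Myh11 was at 0.732 and 0.946 times and Myocd at 0.839 and 0.966 times, so neither call held under these definitions. Lmod1 reached 2.51 times (1.61 to 3.77) at E18.5, short of the limit after 10 CPM were added, and 1.02 times at P3. Acta2 differed little, at 1.11 times (0.881 to 1.37) and 1.11 times (0.865 to 1.404). Tagln was 1.54 times (1.14 to 2.03) at E18.5 and 0.496 times (0.298 to 0.778) at P3. Mylk was at 0.553 times (0.466 to 0.653) at E18.5 and 0.366 times (0.306 to 0.434) at P3, where it was the 1 gene of the 8 called lower and 2.98% of all genes were.

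Against all other nuclei rather than other stroma, the class stood out more. Myocd was at 9.65 times (7.64 to 12.1) at E18.5 and 13.8 times (10.8 to 17.3) at P3, and Myh11 at 6.41 times (5.12 to 7.93) and 7.07 times (5.81 to 8.53). For Myh11 this rested on the Ren1-high cluster. The mural-like nuclei outside that cluster held Myh11 at 23.7 and 36.1 CPM, beside 22.6 and 37.6 CPM in all nuclei outside the class. Myocd in them was at 74.8 and 26.3 CPM, from 41 and 8 UMIs, beside 14.1 and 13.5 CPM. Called higher were Myh11, Myocd, Tagln and Lmod1 at E18.5, where 1.78% of 21420 genes were, and Acta2, Myh11 and Myocd at P3, where 2.31% of 21082 genes were. Mylk was not among them, at 1.13 times (0.956 to 1.34) and 0.798 times (0.668 to 0.946).

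The number of the genes Notch3, Abcc9 and Pdgfrb detected in a stromal nucleus did not order the sum of the genes other than Mylk. The sum without Mylk was 333, 334, 272 and 285 CPM at E18.5 for nuclei with 0, 1, 2 and 3 of them, and 420, 458, 383 and 409 CPM at P3. Mylk was at 391, 431, 445 and 337 CPM at E18.5 and at 723, 867, 863 and 1049 CPM at P3, so that the sum of the 8 genes at P3 went from 1143 CPM with 0 of them to 1458 CPM with 3. The median depth of the same nuclei went from 2740 to 3412.5 UMIs at E18.5 and from 3552 to 5192.5 UMIs at P3, and its part in these levels was not tested.

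Papillary stroma-like nuclei, from the inner tip of the medulla, had the highest Mylk level of the named zones at both ages. They numbered 349 at E18.5, in 1 cluster led by Kcnip1, and 532 at P3, in clusters led by Corin, Ranbp3l and Nkain2. Mylk was at 1345 CPM against 314 CPM in other stroma at E18.5, 4.28 times (4.06 to 4.51), and at 2203 against 394 CPM at P3, 5.59 times (5.39 to 5.80). Myh11 accompanied it at 148.3 against 47.4 CPM, 3.13 times (2.68 to 3.64), and at 237 against 63.8 CPM, 3.71 times (3.36 to 4.11). Tagln was at 108 against 51.8 CPM, 2.08 times, and at 215 against 47.6 CPM, 4.51 times (4.04 to 5.05). Lmod1 was 1.82 times at E18.5 and 3.35 times (2.77 to 4.06) at P3, and Acta2 1.21 and 1.74 times. Called higher were Myh11 and Mylk at E18.5, where 1.58% of genes were, and Myh11, Tagln, Lmod1 and Mylk at P3, where 1.42% were. Cnn1 was at 9.15 and 13.2 CPM, 1.55 times (0.814 to 2.75) and 3.70 times (2.37 to 5.79) the other stroma, and Actg2 at 7.19 and 15.4 CPM, 1.296 times (0.622 to 2.45) and 1.75 times (1.23 to 2.46). These levels lay near the 10 CPM added in the comparison, and neither gene was called.

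Myocd did not follow the other genes in papillary stroma. It was at 9.80 CPM there against 48.2 CPM in other stroma at E18.5, a ratio of 0.203 (0.113 to 0.337), and at 26.0 against 37.5 CPM at P3, 0.694 times (0.548 to 0.870). The Nkain2-led cluster of 145 nuclei at P3 showed this most plainly, with Mylk at 3373 CPM, Myh11 at 340 CPM, Tagln at 256 CPM and Myocd at 13.4 CPM.

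**Figure D3:**
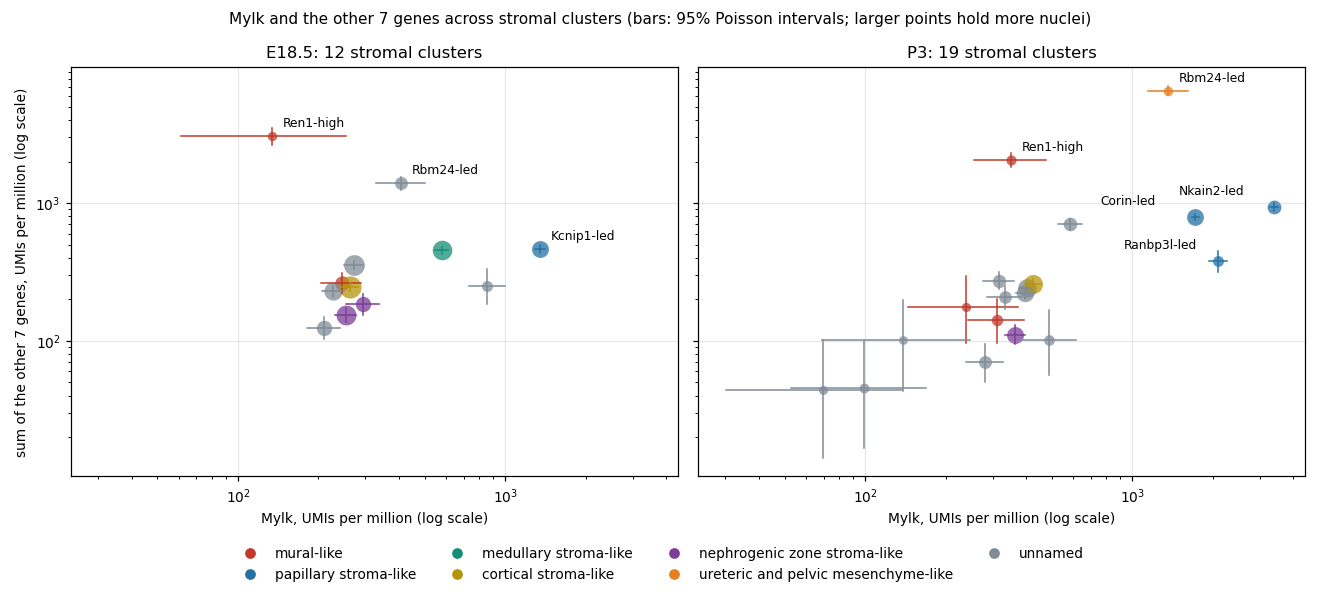
Level of Mylk (horizontal) against the summed level of the other 7 genes (vertical) in each stromal cluster, both in CPM on log scales, with 12 clusters at E18.5 and 19 at P3 in separate panels, colours for named zones, larger points for more nuclei and 95% Poisson intervals as bars. The Nkain2-led papillary cluster at P3 lay farthest right at 3373 CPM of Mylk with 931 CPM of the others, whereas the Ren1-high clusters lay at 3063 and 2059 CPM of the others with 134 and 352 CPM of Mylk.

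Of the other zones, medullary stroma-like nuclei (662, named at E18.5 only) held Acta2 at 162 CPM, Myh11 at 102 CPM, Tagln at 85.9 CPM, Myocd at 53.0 CPM, Lmod1 at 36.0 CPM and Mylk at 578 CPM. Cortical stroma-like nuclei (1111 and 589) held Acta2 at 147 and 144 CPM, but Myh11 at only 17.8 and 15.1 CPM and Lmod1 at 12.1 and 20.8 CPM. Nephrogenic zone stroma-like nuclei (937 and 357), which lie around the progenitors, had the lowest levels of the named zones for Acta2, at 79.0 and 59.9 CPM, for Myh11, at 5.19 and 10.7 CPM, and for the sum of the 8 genes, at 425 and 475 CPM. This did not hold for Myocd, which was at 36.0 and 22.8 CPM there against 17.5 and 19.4 CPM in the cortical zone, or for Mylk, which was at 263 and 364 CPM against 232 and 310 CPM in the mural-like class. Myh11 in the nephrogenic zone was thus near or below the level of proximal tubule-like nuclei. In the cortical zone Myh11 was above that level at E18.5 and near it at P3, while Acta2 was above it at both ages.

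Nuclei that carried several of the genes together were counted at an equal depth. Each nucleus was thinned to 1000 UMIs, which left out 286 shallower nuclei at E18.5 and 930 at P3, and nuclei with UMIs of at least 3 of the 8 genes were counted. At E18.5 there were 5 of 21 in the Ren1-high cluster, 23.8% (8.22 to 47.2), and 10 of 98 in the Rbm24-led cluster, 10.2% (5.00 to 18.0). At P3 there were 10 of 32, 31.2% (16.1 to 50.01), and 17 of 24, 70.8% (48.9 to 87.4). Papillary stroma-like nuclei followed with 6.30% (3.99 to 9.39) and 11.5% (8.90 to 14.5), and cortical stroma-like nuclei with 0.450% and 1.54%. Mylk, 1 of the genes counted, was by itself in 71.1% and 81.7% of the thinned papillary stroma-like nuclei. It was in 14.3% and 18.8% of the Ren1-high and 20.4% and 70.8% of the Rbm24-led nuclei. No count without Mylk is given. The shares with at least 3 genes rose with the depth kept. Thinned to 2000 UMIs they were 61.9% and 46.4% in the Ren1-high clusters, 29.4% and 86.4% in the Rbm24-led clusters, 14.7% and 30.5% in papillary stroma and 2.56% and 3.76% in cortical stroma. In proximal tubule-like nuclei 0 of 1162 were found at E18.5, which allows a share of up to 0.258% when 3 nuclei are taken as the limit of a count of 0 and up to 0.317% by the exact interval, and 5 of 2075, 0.241%, at P3. The median depths before thinning were 2964 and 3314.5 UMIs in the Ren1-high clusters, 2050.5 and 3715.5 in the Rbm24-led clusters, and 4442.5 and 7661 in proximal tubule-like nuclei. Without thinning the shares in proximal tubule-like nuclei were 3.77% and 8.19%. With called doublets removed these were 1.404% and 1.52%, and the thinned count at P3 was 0 of 1313.

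**Figure D4:**
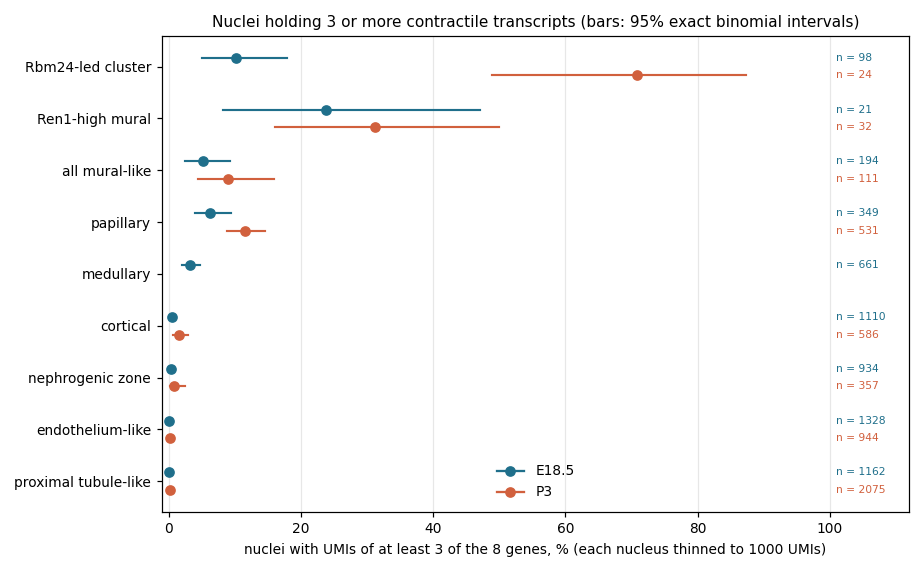
Share of nuclei, in percent, with UMIs of at least 3 of the 8 genes after each nucleus was thinned to 1000 UMIs (horizontal) for each class (vertical) at E18.5 and P3, with exact 95% binomial intervals as bars. The Rbm24-led cluster at P3 reached 70.8%, and proximal tubule-like nuclei stayed at 0 and 0.241%.

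Between the ages, the largest differences were in the Rbm24-led clusters. All 8 genes were called higher at P3, by 3.34 times (2.53 to 4.41) for Mylk up to 7.47 times (4.53 to 12.8) for Tagln, where 10.2% of 6747 genes were. Acta2 was at 1452 against 227 CPM, 6.41 times (4.61 to 9.03), and Myh11 at 2630 against 630 CPM, 4.17 times (3.38 to 5.17). The 2 clusters were matched by their leading gene alone. The E18.5 cluster was shallower, had the larger share of called doublets and carried the Ttn UMIs, and the part of these in the difference was not tested.

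The Ren1-high clusters were paired only as the mural-like cluster with the highest Ren1 level at each age. Their leading genes were Ctnna3, Eln, Kcnab1 and Lrrtm3 at E18.5 and Ren1, Ctnna3, Dgkb and Kcnab1 at P3. Whether they hold the same mix of cells was not tested. Between these clusters all genes but Mylk were below 1, and the sum without Mylk was 0.672 times (0.557 to 0.811) the E18.5 level. Tagln was at 112.1 CPM at P3 against 505 CPM at E18.5, 0.222 times (0.110 to 0.424), and Actg2 at 24.0 against 104 CPM, 0.231 times (0.0385 to 1.01), from 3 and 7 UMIs. Both were called lower, where 14.2% of 4062 genes were. Mylk was at 352 against 134 CPM, 2.63 times (1.27 to 6.14), and was called higher, where 14.8% were. With 2 of 7 compared genes called lower and 1 called higher, these counts are read against large shares among all genes. Lmod1 was at 0.5003 times (0.217 to 1.15), Myh11 at 0.730 times (0.538 to 0.995), Acta2 at 0.898 times (0.560 to 1.46) and Myocd at 0.902 times (0.610 to 1.35), and none of these 4 was called.

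Over the whole mural-like class the 8 genes came to 1.27 times (1.11 to 1.44) the E18.5 level at P3. This value depended on how the class was drawn, at 2.24 times with Leiden clusters, 1.99 times with 20 neighbours and 1.87 times with the 3-gene definition. Myh11 was at 1.84 times (1.38 to 2.45), Myocd at 1.36 times (0.992 to 1.88), Acta2 at 1.19 times (0.855 to 1.64) and Tagln at 0.514 times (0.287 to 0.882), and 0 of the 7 genes that could be compared were called in either direction, where 2.66% of 10621 genes were called higher and 9.68% lower. The Ren1-high cluster was 10.7% of the class at E18.5 and 28.8% at P3. In the mural-like nuclei outside it the sum was 443 CPM at P3 against 507 CPM at E18.5, 0.874 times (0.706 to 1.08). Without Mylk it was 151 against 263 CPM, 0.575 times (0.403 to 0.806), and Myocd, at 0.351 times (0.142 to 0.758), and Lmod1, with 0 against 12 UMIs, were called lower, where 11.4% of 9954 genes were. In papillary stroma-like nuclei all 8 genes were above 1 at P3, from 1.44 times for Cnn1 to 2.66 times (1.53 to 4.94) for Myocd, with Mylk at 1.64 times (1.56 to 1.72), Tagln at 1.99 times (1.68 to 2.37) and Acta2 at 1.47 times (1.27 to 1.71). None was called higher, where 0.58% of 14485 genes were. In cortical stroma-like nuclei Mylk was at 1.62 times (1.48 to 1.78), while the sum of the other genes was at 1.05 times (0.939 to 1.17).

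**Figure D5:**
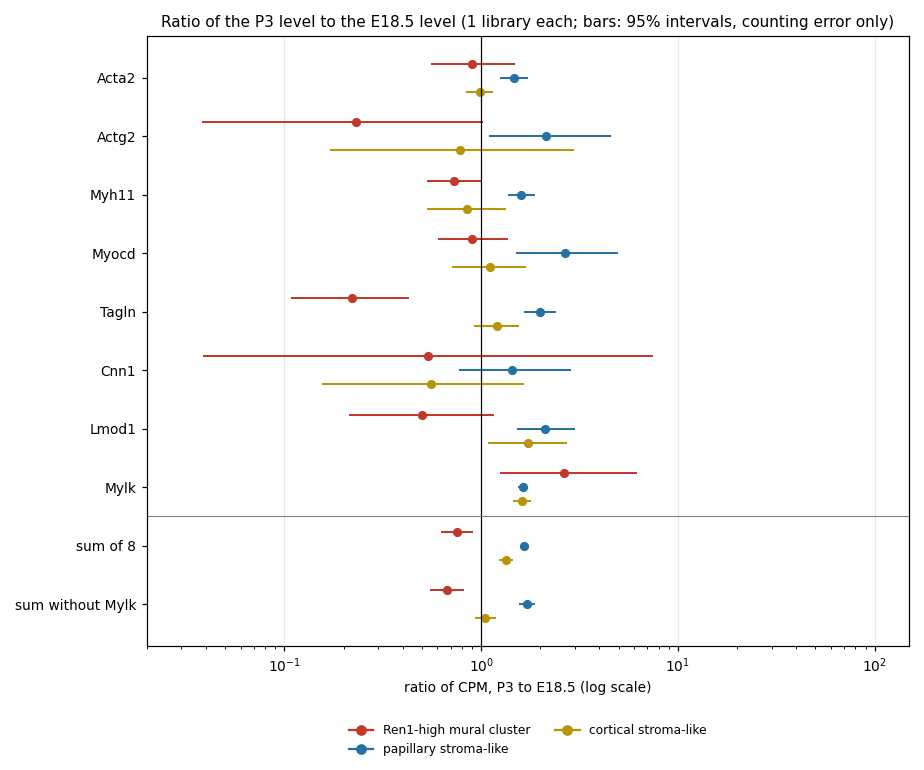
Ratio of the P3 level to the E18.5 level of each gene (vertical) on a log scale (horizontal) in the Ren1-high mural cluster, papillary stroma-like nuclei and cortical stroma-like nuclei, with exact 95% intervals for counting error as bars. In the Ren1-high cluster Tagln lay at 0.222 and Mylk at 2.63, whereas in papillary stroma-like nuclei all 8 genes lay above 1.

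Over all stromal nuclei the P3 level was 2.01 times (1.95 to 2.07) the E18.5 level for Mylk, 1.85 times for Myh11, 1.82 times for Actg2, 1.67 times for Lmod1, 1.54 times for Tagln, 1.18 times for Acta2, 0.946 times (0.701 to 1.28) for Cnn1 and 0.780 times (0.695 to 0.875) for Myocd. Gene length moved with the ratio of ages in stroma. The median ratio was 0.714 over 2538 genes shorter than 20 kb, 0.9699 over 3970 genes of 20 to 100 kb and 1.23 over 1730 longer genes. Acta2 and Tagln, both in the shortest group, lay above that median, and Myocd lay below the median of its own group. The part of gene length in the ratios of single genes was not tested, nor was that of the counting release, which may differ between the ages.

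The 8 genes varied together over clusters, with Mylk the most separate. Over the 38 clusters of 20 or more nuclei at E18.5 and 45 at P3, with levels as log2 of CPM plus 10, the closest pair was Myh11 and Lmod1 with Pearson's r of 0.93 and 0.92. Acta2 and Tagln gave 0.88 and 0.81, whereas Actg2 and Mylk gave 0.15 and 0.51. The genes outside the 8 whose levels were most like their sum were Nexn, Jph2, Myl9, Csrp1, Adcy5, Col23a1, Pakap, Flna, Carmn and E130310I04Rik, with a mean r over both libraries from 0.880 to 0.836. For the sum without Mylk the first were Myl9 (0.914), Jph2 (0.885), Pdlim3 (0.874) and Nexn (0.869). Col23a1 and E130310I04Rik were not among the 10 genes most like that sum. Nexn encodes an actin filament-binding protein, Jph2 a protein that ties the calcium store to the plasma membrane, and Myl9 the regulatory light chain that Mylk phosphorylates. Myl9 was most like Acta2 (0.891) and Tagln (0.836), Jph2 most like Myh11 (0.834), Lmod1 (0.824) and Myocd (0.798), and Rbm24, a splicing regulator of muscle, most like Actg2 (0.851) and Cnn1 (0.801). Mylk was most like E130310I04Rik (0.912) and Gm21691 (0.868), both antisense genes that overlap it. Clusters of 1 library share its depth and free RNA, and these values are descriptions.

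Genes that work with the 8 were followed in a wider list of 74 genes in 5 groups. Ratios in this list have 10 CPM added to each level. Among 20 thin filament, dense plaque and other contractile partners, 3 were called higher and 0 lower in mural-like than in all other nuclei at E18.5, where 1.78% of all genes were higher and 3.48% lower, and 7 higher and 1 lower at P3, where 2.31% and 5.32% were. Cald1 (caldesmon) was at 4.65 and 4.15 times, the integrin Itga1 at 3.66 and 3.39 times and Ldb3 at 3.29 and 4.99 times, and Pgm5 was lowest at 0.633 and 0.520 times. The median over the group was 1.38 and 1.52 times, beside a median log2 ratio over all genes of -0.06 and -0.08. Against other stroma instead, 3 were higher and 2 lower at E18.5, where 1.91% of all genes were higher and 1.91% lower, and 2 higher and 2 lower at P3, where 2.38% and 2.98% were, with a group median of 1.06 times at each age. Of 11 genes of myosin light chain phosphorylation 1 was called higher than in all other nuclei at each age, where 1.78% and 2.31% of all genes were, the cGMP-dependent kinase gene Prkg1 at 8.58 and 7.30 times. Ppp1r12a, a myosin phosphatase subunit that opposes Mylk, was at 1.83 and 1.79 times, the phosphatase inhibitor Ppp1r14a at 1.75 and 1.84 times, and the related subunit Ppp1r12b lowest at 1.05 and 1.301 times.

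Of 13 transcription genes 4 had served as markers of classes, among them Notch3, Heyl and Tshz3, and their levels are no result. Of the other 9, 2 were called higher than in all other nuclei at each age, where 1.78% and 2.31% of all genes were, and Mef2c led at 8.26 and 10.0 times. Against other stroma 1 of the 9 was higher and 0 lower at E18.5, where 1.91% of all genes were higher and 1.91% lower. At P3 2 were higher and 1 lower, where 2.38% and 2.98% were. Of 15 genes of calcium handling, channels and receptors 2 were class markers, the receptor genes Ednra and Agtr1a. Of the other 13, 3 were called higher and 2 lower than in all other nuclei at each age, where 1.78% and 2.31% of all genes were higher and 3.48% and 5.32% lower. The cation channel gene Trpc6 was at 5.36 and 19.5 times and the muscarinic receptor gene Chrm3 at 0.148 and 0.453 times. Against other stroma 2 of the 13 were higher and 3 lower at E18.5, and 2 higher and 2 lower at P3, beside the shares of all genes given above for other stroma. Of the paralogs outside smooth muscle, 15 at E18.5 and 12 at P3 had enough UMIs, and none was called in either direction against all other nuclei. The nonmuscle myosin gene Myh9 was at 1.68 and 1.52 times and Cnn2 at 1.42 and 1.80 times. Mylk4 and Mylk3, from 1 to 5 UMIs in the class, were at 1.75 and 0.590 times at E18.5. In the Rbm24-led cluster at P3, 12 of the 20 contractile partners were called higher than in other stroma and 0 lower, where 5.65% of all genes were higher, among them Myl9 at 5.71 times, Tpm1 at 4.73 times and Pgm5 at 9.86 times. In the Rbm24-led cluster at E18.5, 2 of the 20 were called higher and 0 lower, where 2.33% of all genes were higher. In the Ren1-high cluster at P3, 5 of those 20 were called higher and 2 lower, where 5.46% of all genes were higher and 10.4% lower. At E18.5 8 of the 20 were higher there and 2 lower, where 7.77% of all genes were higher and 14.8% lower. The 13 calcium, channel and receptor genes that were no class markers were also compared in the Ren1-high clusters. Of these, 7 were higher and 1 lower at P3, where 5.46% of all genes were higher and 10.4% lower. At E18.5 6 were higher and 1 lower, where 7.77% were higher and 14.8% lower. In the Rbm24-led clusters 3 of the same 13 were higher and 3 lower at P3, where 5.65% of all genes were higher and 9.64% lower. At E18.5 3 were higher and 2 lower there, where 2.33% were higher and 3.86% lower.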

How the data were processed

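Nuclei of whole kidneys were profiled with 10x Genomics 3′ single-nucleus RNA sequencing, 1 library per age. The deposited files hold raw UMI counts per gene and nucleus, which the authors made with Cell Ranger on mm10. The labels name release 5.0.1 for both libraries, but the E18.5 matrix header gives 7.0.0. Whether introns or strand were used in counting is not given in the sources used here. Nuclei were left out for low log UMIs or genes (limit 3 median absolute deviations) or high mitochondrial shares. Counts were scaled by deconvolution (scran 1.30.0), and 2000 variable genes without the contractile lists and 50 principal components were clustered by Walktrap on 10 neighbours. Stroma was clustered again in the same way. Scrublet (in scanpy 1.11.5, expected rate 0.1) marked doublets, which were kept unless stated. A cluster was named from at least 3 raised markers, and the naming rules were settled after the clusters were seen. UMI sums per class gave CPM and ratios, with exact Poisson and exact conditional binomial intervals, and UMIs from free RNA were not removed. The scripts were tested on simulated data. All 8 genes are reported, and the wider list is given by counts plus, in each group, the 3 top genes and the bottom gene by E18.5 ratio of mural-like to other nuclei, with no values for class markers. Myl9 and Tpm1, named for the Rbm24-led cluster at P3, lie outside that rule. The members and gene lists were chosen with earlier results of these data known. Alternatives were Leiden and 20-neighbour clusters, a 3-gene mural panel, doublets removed, a limit of 2000 UMIs per nucleus, deconvolution size factors, subtraction of the proximal tubule-like level, thinning to 2000 UMIs, and sums without Mylk or Acta2.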

Additional observations from a re-analysis of the deposited data

Results flagged for a closer look

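In 2 cases the whole interval of the ratio of mural-like to other stromal nuclei lay above 1 at 1 age and below 1 at the other. The ratio also crossed 1 for Actg2, at 2.08 (0.811 to 4.47) and 0.666 (0.136 to 1.98). For Cnn1 it did so at 1.05 (0.280 to 2.78) and 0.788 (0.0940 to 2.94). The intervals of these 2 genes held 1 at each age. For Tagln the ratio was 1.54 at E18.5 (interval 1.14 to 2.03) and 0.496 at P3 (interval 0.298 to 0.778). Beside it stood the Tagln level of the Ren1-high cluster, 505 and 112.1 CPM. For the sum of the 8 genes the ratio was 1.10 at E18.5 (interval 1.01 to 1.21) and 0.804 at P3 (interval 0.729 to 0.884), and Mylk in the other stromal nuclei was at 420 and 846 CPM. With 1 library per age the difference between the ages was not tested in either case.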

How the results depend on the processing

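The sums of the mural-like class and part of the single-gene values and shares were recomputed under the alternatives, 289 times in all. Not every ratio given above was recomputed, and not every alternative was run for each value. Of the recomputed sums 16 moved by less than their counting interval, 5 moved by more and 9 turned direction. Of the single genes and shares 196 moved by less, 50 by more, and 13 turned direction. For the sum of the 8 genes at E18.5 the ratio of mural-like to other stromal nuclei, 1.10, became 0.981 with Leiden clusters, 0.985 with Walktrap clusters on 20 neighbours, 0.929 with nuclei that had at least 2 of Notch3, Abcc9 and Pdgfrb, 1.85 without Mylk and 0.688 with the Ren1-high cluster counted as other stroma. At P3 the ratio of 0.804 became 1.27, 1.33, 1.04, 1.69 and 0.348 in the same order. The P3 to E18.5 ratio in mural-like nuclei, 1.27, became 2.24 with Leiden clusters, 1.99 with 20 neighbours, 1.87 with the 3-gene panel and 0.874 without the Ren1-high cluster, an alternative chosen after seeing the data.

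With the 3-gene panel, Myh11 crossed 1 to 0.732 at E18.5 and 0.946 at P3, Myocd to 0.839 and 0.966, Mylk to 1.01 and 1.13, and Tagln and Lmod1 to 0.864 and 0.734 at E18.5, while Tagln at P3 against E18.5 became 1.56. With the Ren1-high cluster as other stroma, Myh11 became 0.407 and 0.337, Tagln 0.598 at E18.5 and Myocd 0.752 at P3. The Ren1-high nuclei were 10.7% of the class at E18.5 and 28.8% at P3, against 8.82% and 59.3% with Leiden clusters and 0.784% and 3.01% with the panel, and the cause of the changes was not tested. Removing called doublets, a limit of 2000 UMIs, deconvolution size factors, the subtracted proximal tubule-like level and the sum without Acta2 reversed none of the values run under them. No paired analysis was possible because each age had 1 library. Small clusters of 21 to 105 nuclei and genes with few UMIs limit the precision.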
